A study of Mus musculus with 6 samples.

Results

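Genes that are recurrently mutated in B-cell lymphoma were examined in naive B cells from mouse spleen with and without TET2, which oxidizes methylated cytosine in DNA and is itself lost in some blood cancers. The list held 35 of the 41053 gene names measured. Its rule used gene names and no measured value, but it was chosen with earlier results of these data known. Of the 35 genes, 13 encode chromatin regulators and 22 encode signalling proteins, transcription factors and other proteins, and the groups are described separately. RNA sequencing covered 6 libraries, 3 from mice labelled TET2 Knock-Out and 3 from mice labelled TET2 Wild-Type, all of the C57BL/6 strain and without treatment. Libraries carry the numbers 2, 3 and 4 in each genotype. The labels used here name no Cre driver, no deleted exon, no age and no sex, and they leave unsaid whether the libraries of a genotype are from different mice. The p-values therefore rest on a spread among libraries that may be technical. The question was whether the RNA of these genes differs in level between the genotypes in naive B cells.

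Lymphoma mutations hit a few recurring systems. CREBBP and EP300 acetylate histones at enhancers, KMT2D and KMT2C methylate histone H3 lysine 4 there, and the polycomb enzyme EZH2 places the opposing repressive methyl mark on lysine 27. Outside chromatin, the mutated genes restrain or drive B-cell signalling. The G protein Gα13 and RhoA keep germinal centre B cells confined, JAK-STAT proteins relay cytokine signals, and the Rag GTPases report amino acids to the growth kinase mTORC1.

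Library totals lay between 35101788 and 45401781 counts. Levels are given as CPM, a count scaled to the normalised library total, and a count of 3 corresponded to 0.0679 to 0.0857 CPM. B-cell markers summed to 21836 to 25251 CPM in knockout and 20358 to 21834 in wild type, with 11 of 12 markers found. The summed T-cell list stood at 295 to 324 CPM in knockout and 260 to 292 in wild type, most of it from Cd2, while Cd3e stayed at or below 0.0722 CPM. The lists for natural killer, myeloid and erythroid or platelet cells summed to at most 1.68, 37.4 and 15.3 CPM. Plasma cell markers summed to 392.1 to 444 CPM in knockout and 415 to 465 in wild type, carried mostly by Irf4. Germinal centre markers summed to 162 to 195 and 180 to 201 CPM, carried mostly by Bcl6. Stromal and endothelial markers summed to 309 to 424 and 325 to 381 CPM, nearly all of it from Pecam1. Cdh5 was at most 1.54 CPM, and Col1a1, Col3a1 and Pdgfrb were at most 0.0857 CPM. Some markers in these lists had the higher mean in knockout, as Igj at 32.9, 21.3 and 11.1 CPM in knockout and 7.95, 13.3 and 4.91 CPM in wild type. Another was Mki67, at 19.5, 21.4 and 10.4 CPM in knockout and 13.4, 11.4 and 9.56 CPM in wild type. Irf4, Prdm1, Sdc1 and Xbp1 of the plasma cell list and Bcl6 of the germinal centre list had the lower mean in knockout. No marker that was found had 0 counts in all libraries, and the part of these cells in the results was not tested. Tet2 RNA averaged 58.1 CPM (SD 7.47, n = 3) in knockout libraries and 71.6 CPM (SD 13.5, n = 3) in the others, a log2 change of −0.30 with edgeR adjusted p = 0.408. The change was −0.29 with a model term for the libraries numbered 4 (edgeR adjusted p = 0.0420) and −0.35 in libraries 2 and 3 alone (edgeR adjusted p = 0.00227). The deleted part of Tet2 is not given in the labels, so its level over all exons does not check them. Y-linked Kdm5d and Ddx3y were at 23.3 CPM or more in every knockout library and at most 0.0571 CPM in wild type, and Xist in knockout was at 56.9% of wild type. Genotype and sex composition cannot be told apart here. Library 4 of each genotype differed from libraries 2 and 3, with more heat-shock RNA (Dnajb1 at 265% of the level there), and results that move with these libraries are given with and without them.

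Promoter windows of 3 members are shown, since TET2 acts on methylated CG dinucleotides in DNA. They belong to Sgk1 and Klhl6, the 2 matched genes with the smallest p between genotypes, and to Tmem30a, the gene with the largest p. Each runs from 250 bases before to 50 bases after a RefSeq transcript start (GRCm38.p6), 5′ to 3′ on the gene's strand, with every CG in capitals. The first Sgk1 window lies at the deposited 5′ end of the gene (chr10:21881934-21882233, plus strand), and a second Sgk1 window (chr10:21994416-21994715, plus strand), chosen after its values were seen, is the richest in CG of the 6 that RefSeq places at this gene. The Klhl6 window is chr16:19983000-19983299 on the minus strand, and the Tmem30a window is chr9:79793381-79793680 on the minus strand.
Sgk1, upstream start: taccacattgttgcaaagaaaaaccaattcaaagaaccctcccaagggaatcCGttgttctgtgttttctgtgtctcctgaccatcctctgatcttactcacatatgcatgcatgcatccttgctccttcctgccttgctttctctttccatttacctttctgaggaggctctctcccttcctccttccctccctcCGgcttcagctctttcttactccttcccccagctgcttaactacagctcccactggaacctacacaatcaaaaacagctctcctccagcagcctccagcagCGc
Sgk1, downstream start: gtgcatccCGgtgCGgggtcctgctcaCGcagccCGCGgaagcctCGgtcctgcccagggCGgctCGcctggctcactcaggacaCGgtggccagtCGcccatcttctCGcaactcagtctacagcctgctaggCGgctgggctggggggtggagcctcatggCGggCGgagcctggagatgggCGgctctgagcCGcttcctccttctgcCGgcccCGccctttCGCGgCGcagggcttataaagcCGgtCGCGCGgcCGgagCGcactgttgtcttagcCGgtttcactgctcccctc
Klhl6: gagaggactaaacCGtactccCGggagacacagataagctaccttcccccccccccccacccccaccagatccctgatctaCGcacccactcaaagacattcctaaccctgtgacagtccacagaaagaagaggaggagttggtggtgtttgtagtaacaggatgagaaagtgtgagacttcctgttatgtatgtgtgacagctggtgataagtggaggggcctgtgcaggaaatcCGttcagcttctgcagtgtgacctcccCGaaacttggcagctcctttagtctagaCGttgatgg
Tmem30a: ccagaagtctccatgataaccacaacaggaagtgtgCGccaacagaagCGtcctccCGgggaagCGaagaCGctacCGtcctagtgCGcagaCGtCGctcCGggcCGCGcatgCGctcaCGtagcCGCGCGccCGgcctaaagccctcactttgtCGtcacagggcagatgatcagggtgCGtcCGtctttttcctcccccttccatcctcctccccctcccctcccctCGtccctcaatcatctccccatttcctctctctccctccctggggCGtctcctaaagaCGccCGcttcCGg
The upstream Sgk1 window held 3 CG dinucleotides and the Klhl6 window 6, against 26 in Tmem30a and 28 in the downstream Sgk1 window. The ratio of CG found to CG expected from base composition was 0.206, 0.289, 0.961 and 0.770 in the same order. Methylation was not measured in these libraries, so the sequences describe the promoters and bear on no mark.

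Most lymphoma genes were well transcribed in naive B cells. Per length (RPKM, CPM per kilobase of the deposited exon length), the median wild-type level of the 34 genes that passed the filter on low counts was 31.6, against 7.01 over all 13604 genes tested, and 31 of the 34 lay at or above that median. Cd70, the ligand of the costimulatory receptor CD27, was the gene that did not pass. It had 1 count in wild-type library 2 and 0 in the other 5 libraries, and no fold is given.

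**Figure D1:**
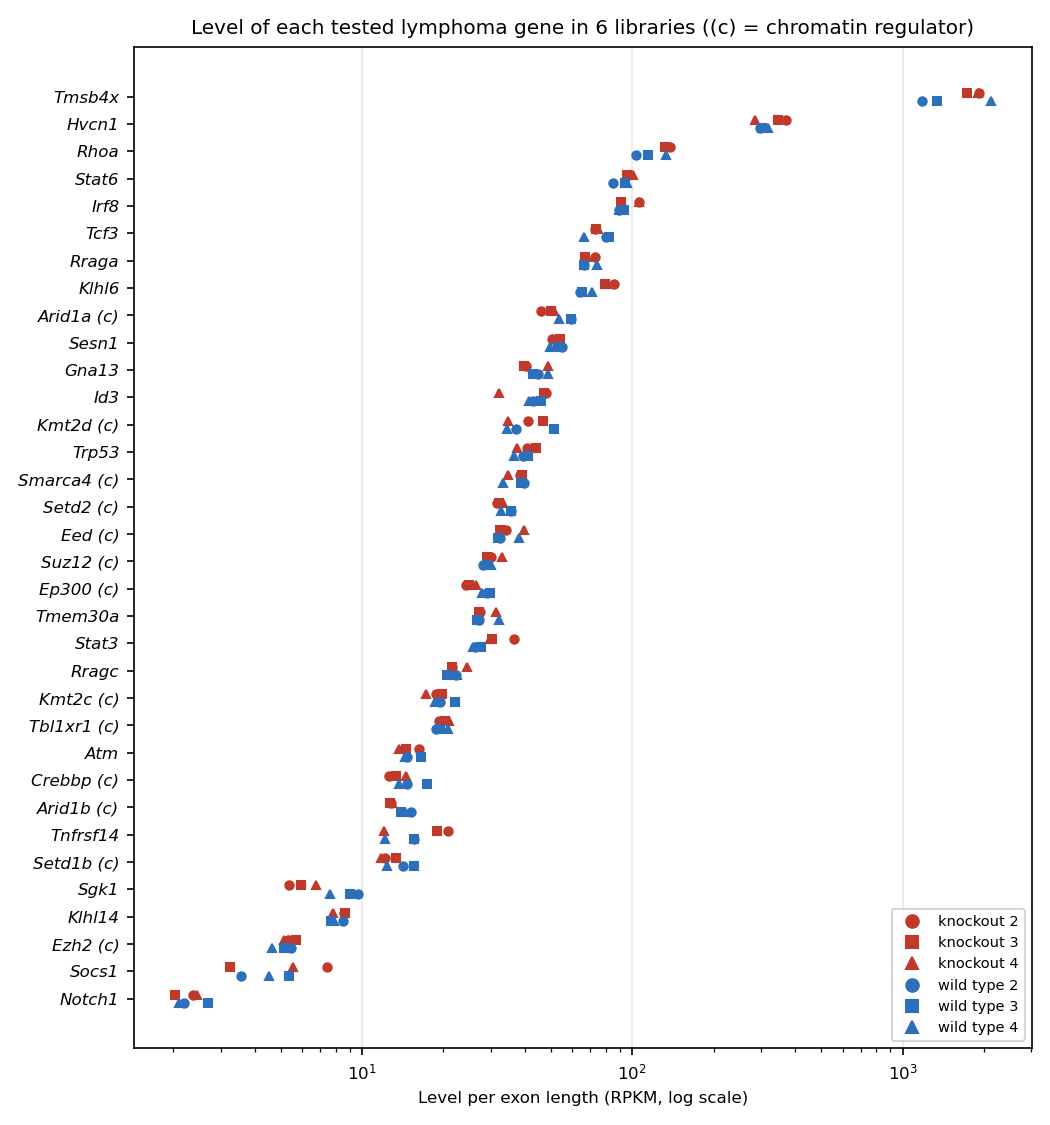
Level per exon length (RPKM, log scale, horizontal) of the 34 tested lymphoma genes in each of the 6 libraries, ordered by wild-type mean, with the knockout in red, the wild type in blue, the library number by symbol and chromatin regulators marked (c). Levels span from Notch1 at a wild-type mean of 2.33 to Tmsb4x at 1549.8 RPKM, and for most genes the 6 libraries lie close together against that span.

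Tmsb4x, which encodes the actin-binding thymosin beta 4, stood highest, with a wild-type level of 1549.8 ± 507 RPKM (SD, n = 3). Hvcn1, a voltage-gated proton channel of B cells, followed at 305 ± 10.7 RPKM and Rhoa at 117 ± 15.3 RPKM. Tmsb4x lay above 99.9% and Hvcn1 above 99.3% of tested genes per length. The order of these 3 genes holds in every wild-type library. At the other end stood Notch1 at 2.33 ± 0.315 RPKM, Socs1 at 4.48 ± 0.902 and Ezh2 at 5.07 ± 0.397, the last 2 with ranges that overlap. Notch1, a receptor whose cleaved part enters the nucleus, lay above 31.7% of tested genes, and Ezh2 above 43.6%. Of the 3 PRC2 members listed, Ezh2, a catalytic subunit, was the lowest. Its partners Suz12, a scaffold subunit, and Eed, which reads the repressive mark, stood at 29.1 ± 1.03 and 34.0 ± 3.51 RPKM, above Ezh2 in each wild-type library. Ezh1, the alternative catalytic gene, is not among the members. It averaged 128 CPM in wild type, against 31.4 CPM for Ezh2, neither scaled to exon length.

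No lymphoma gene passed the threshold of edgeR's quasi-likelihood test between genotypes when all 6 libraries were compared. It called 0 of 34 members at an adjusted p under 0.05, where 0.404% of all tested genes passed. limma-voom called 0, where 0.353% of all genes passed, and DESeq2 called 2, Sgk1 and Klhl6, where 2.57% passed. At an unadjusted p under 0.05 there were 6 members (Sgk1, Klhl6, Stat3, Ep300, Arid1b and Arid1a), against 13.4% of all tested genes. The genotypes did not overlap for 7 members, 3 higher and 4 lower in knockout, against 18.5% of all tested genes in either direction, and so the share of members was near that of all genes. The log2 changes, knockout minus wild type, ran from −0.54 to 0.29 with a median of 0.01, and 19 were above 0. Over all tested genes the median was −0.01 and 48.8% were above 0. In bulk RNA, fewer cells that carry a transcript and less of it in each cell cannot be told apart.

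Against the spread among these libraries, the intervals of most differences were narrow. That spread may be technical, so the intervals may not bound a difference between mice, and genotype cannot be told apart from sex composition. For 30 of 34 members the 95% interval of the change lay within 1.5-fold either way, as it did for 64.7% of all tested genes. The exceptions were Sgk1, Socs1, Tnfrsf14 and Tmsb4x. The widest was Socs1, whose interval ran from 0.78-fold to 1.88-fold.

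**Figure D2:**
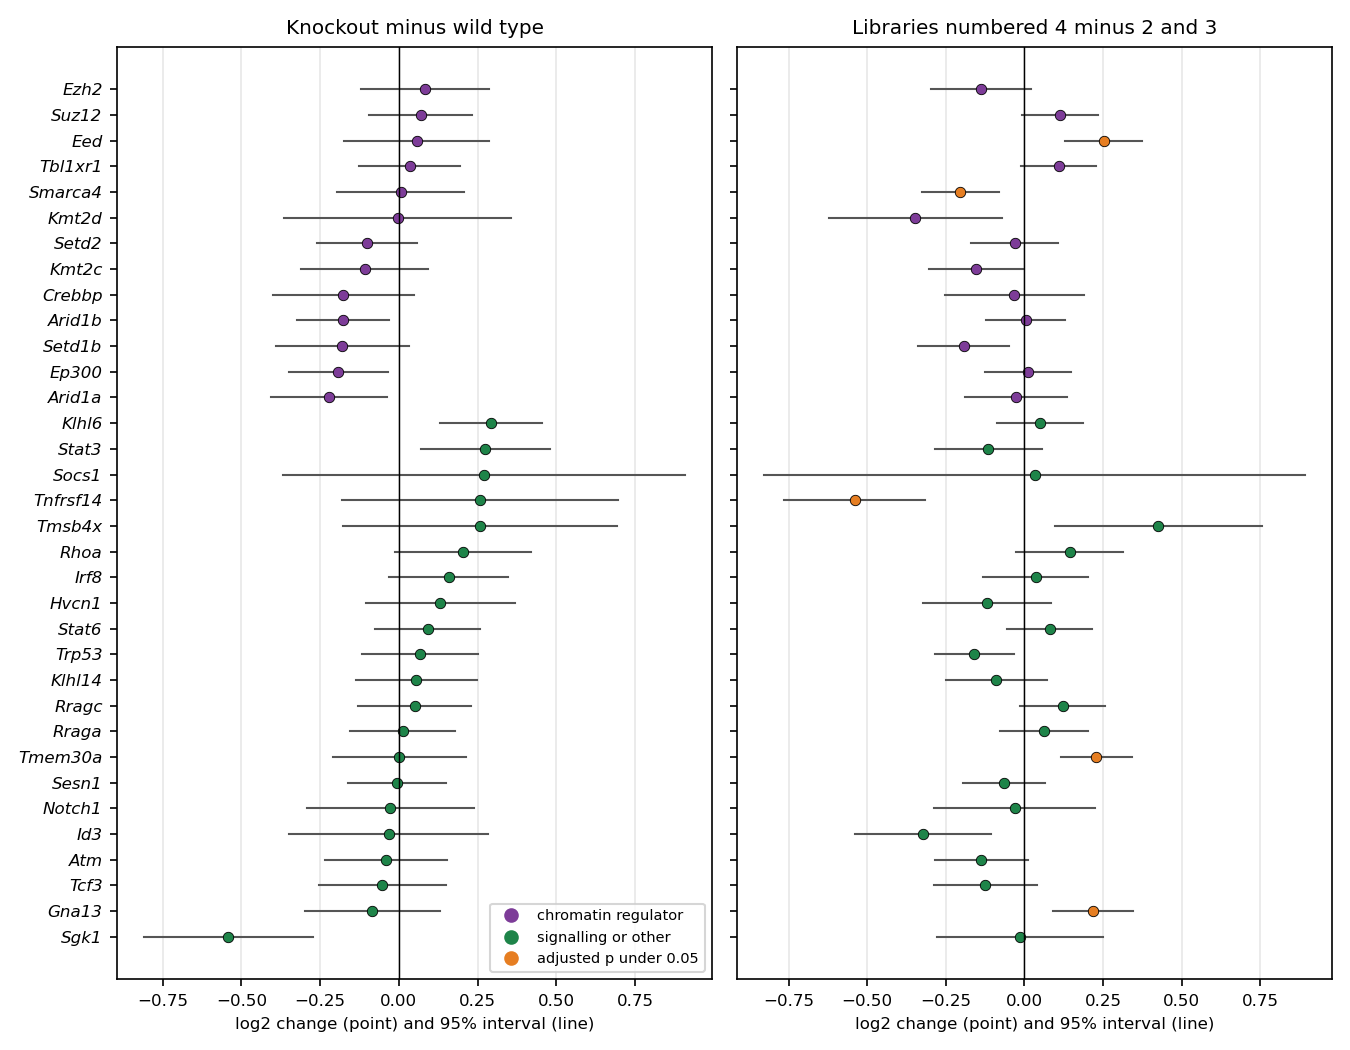
Fitted log2 change (points) with its 95% interval (lines) for each of the 34 tested lymphoma genes, left for knockout minus wild type and right for libraries numbered 4 minus libraries 2 and 3 with genotype in the model, coloured by class, with genes past the threshold in orange. On the left no point is orange and 6 intervals exclude 0, while on the right 5 points are orange.

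Among the 13 chromatin regulators, 8 stood lower and 5 higher in knockout by the sign of the change, with a median log2 change of −0.10 and a range from −0.22 to 0.08. None of the 13 was called by edgeR, DESeq2 or limma-voom, where 0.404%, 2.57% and 0.353% of all tested genes passed. Unadjusted, 3 were under 0.05, against 13.4% of all tested genes. The 3 genes whose genotypes did not overlap, Ep300, Arid1a and Arid1b, were all lower in knockout, a direction of separation found in 8.28% of all tested genes. The interval of every chromatin regulator lay within 1.5-fold either way.

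The acetyltransferases came first among them. Ep300 (chromosome 15, 81585351 to 81652072, GRCm38) measured 338, 346 and 366 CPM in knockout libraries 2, 3 and 4 and 402, 412 and 386 CPM in wild type. Every knockout library lay below every wild-type library, with a log2 change of −0.19 (SE 0.07, 95% interval −0.35 to −0.03, unadjusted p = 0.0219, edgeR adjusted p = 0.305). Crebbp, its close relative, measured 163, 173 and 187 CPM in knockout and 189, 225 and 177 CPM in wild type. The libraries overlapped because knockout library 4 lay above wild-type library 4, and the log2 change was −0.18 (SE 0.10, edgeR adjusted p = 0.475). In libraries 2 and 3 alone, Crebbp differed by −0.30 and Ep300 by −0.25 (edgeR adjusted p = 0.0181 and 0.00643).

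The ARID subunits of the BAF chromatin remodeller were also lower in every knockout library. Arid1a (chromosome 4, 133679008 to 133756769) measured 529, 575 and 590.1 CPM in knockout and 681, 682 and 612 CPM in wild type. The genotypes did not overlap, and the log2 change was −0.22 (SE 0.08, 95% interval −0.41 to −0.04, unadjusted p = 0.0232, edgeR adjusted p = 0.307). Arid1b (chromosome 17, 4994332 to 5347656), its paralog and alternative subunit, measured 161, 159.7 and 163 CPM in knockout and 191, 176 and 181 CPM in wild type. These knockout libraries lay within a coefficient of variation of 1.07%, and all were below wild type, with a log2 change of −0.18 (SE 0.06, unadjusted p = 0.0222, edgeR adjusted p = 0.305). Smarca4, the ATPase of the same complex, measured 249.6, 254 and 224 CPM in knockout and 258, 251 and 215 CPM in wild type. Its libraries overlapped, with a log2 change of 0.0058 (95% interval −0.20 to 0.21), and the difference between it and the ARID subunits was not tested.

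Of the enzymes that methylate histone H3, Setd1b, a writer of lysine 4 methylation, measured 132, 145 and 127 CPM in knockout and 155, 169 and 134 CPM in wild type. The ranges overlapped, and the log2 change was −0.18 (SE 0.09, edgeR adjusted p = 0.443). Kmt2c differed by −0.11 (SE 0.09) and Setd2, which methylates lysine 36, by −0.10 (SE 0.07), with edgeR adjusted p = 0.618 and 0.562. Kmt2d, among the most often mutated of these genes in human lymphoma, varied more between libraries of 1 genotype than between genotypes. It measured 813, 928 and 688 CPM in knockout and 736, 1015 and 685 CPM in wild type, with library 3 highest and library 4 lowest in each genotype. Its log2 change was −0.0045 (95% interval −0.36 to 0.35).

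The PRC2 subunits all had changes above 0, but none past the threshold. Ezh2 measured 32.9, 35.2 and 31.9 CPM in knockout and 33.7, 31.9 and 28.8 CPM in wild type, a log2 change of 0.08 (95% interval −0.12 to 0.29, edgeR adjusted p = 0.721). Suz12 differed by 0.07 (SE 0.07) and Eed by 0.06 (SE 0.10), with overlapping libraries. Tbl1xr1, a subunit of the NCoR corepressor, differed by 0.03 (SE 0.07). The signs for Smarca4 and Tbl1xr1 turn under scaling to library size alone (−0.04 and −0.01).

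**Figure D3:**
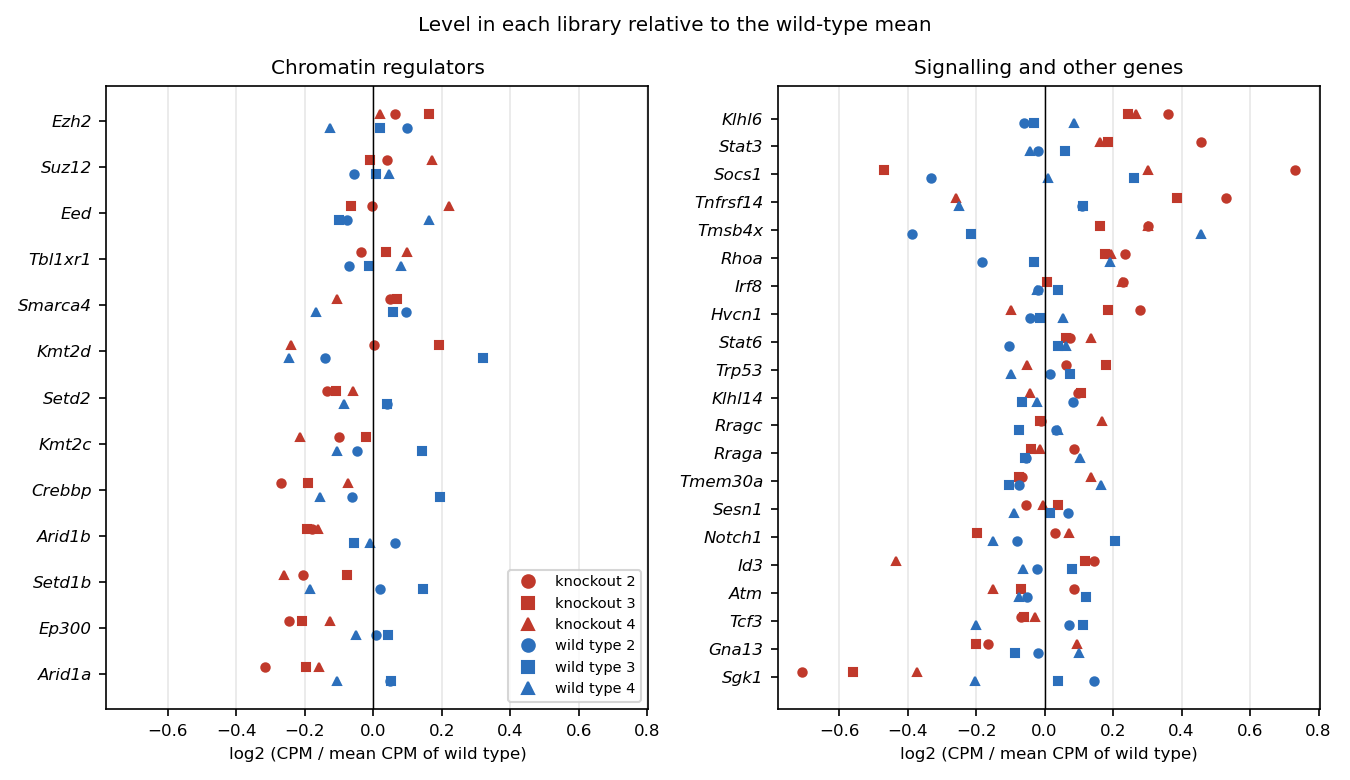
Level of each lymphoma gene in each library as log2 of its CPM over the wild-type mean (horizontal), chromatin regulators left and signalling and other genes right, with the genes ordered by their log2 change, knockout in red, wild type in blue and the library number by symbol. Red and blue symbols separate for Ep300, Arid1a and Arid1b on the left and for Sgk1, Klhl6, Stat3 and, by a narrow margin, Stat6 on the right.

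Of the 22 signalling and other genes, 21 were tested, and 14 stood higher and 7 lower in knockout by the sign of the change, with a median log2 change of 0.06. edgeR and limma-voom called 0 of them and DESeq2 called 2, where 0.404%, 0.353% and 2.57% of all tested genes passed. Unadjusted, 3 were under 0.05, against 13.4% of all tested genes. The genotypes did not overlap for 4 genes, against 18.5% of all tested genes. Klhl6, Stat3 and Stat6 were higher in knockout in every library, as were 10.2% of all tested genes, and Sgk1 was lower, as were 8.28%.

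Sgk1, a serine/threonine kinase of the PI3K pathway, had the largest change in size of all members. It lies on chromosome 10 (21882184 to 21999903) and measured 26.3, 29.2 and 33.2 CPM in knockout and 47.5, 44.2 and 37.3 CPM in wild type. Every knockout library was below every wild-type library, and the knockout mean was 68.7% of wild type. The log2 change was −0.54 (SE 0.12, 95% interval −0.81 to −0.27, unadjusted p = 0.0013), which missed the threshold after adjustment over all genes (edgeR adjusted p = 0.129). In libraries 2 and 3 alone the change was −0.72 (edgeR adjusted p = 1.76e-05), while the libraries numbered 4 differed by −0.17.

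Klhl6, a substrate adaptor of a ubiquitin ligase needed for germinal centre B cells, had the smallest p among the higher genes. It lies on chromosome 16 (19946499 to 19983037) and measured 223, 206 and 209 CPM in knockout and 167, 170.3 and 185 CPM in wild type. The knockout libraries were all above the wild-type ones. The log2 change was 0.29 (SE 0.07, 95% interval 0.13 to 0.45, unadjusted p = 0.00259, edgeR adjusted p = 0.157). Klhl14, a related adaptor that restrains B-cell receptor signalling, differed by 0.06 (SE 0.08), with overlapping libraries.

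The JAK-STAT members were the transcription factors Stat3 and Stat6 and the inhibitor Socs1. Stat3 (chromosome 11, 100885098 to 100939540) measured 347, 287 and 283 CPM in knockout and 249, 263 and 245 CPM in wild type. The genotypes did not overlap, with knockout library 2 far above the others, and the log2 change was 0.27 (SE 0.09, 95% interval 0.07 to 0.48, unadjusted p = 0.0144, edgeR adjusted p = 0.267). Stat6, which relays interleukin 4, measured 423, 419.7 and 441 CPM in knockout and 374, 413 and 419.1 CPM in wild type. The lowest knockout library lay only just above the highest wild-type library, and the log2 change was 0.09 (SE 0.07, edgeR adjusted p = 0.619). Socs1 was low and scattered, at 9.08, 3.95 and 6.75 CPM in knockout and 4.35, 6.55 and 5.51 CPM in wild type. Its change of 0.27 (SE 0.28) therefore carried the largest error of any member.

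**Figure D4:**
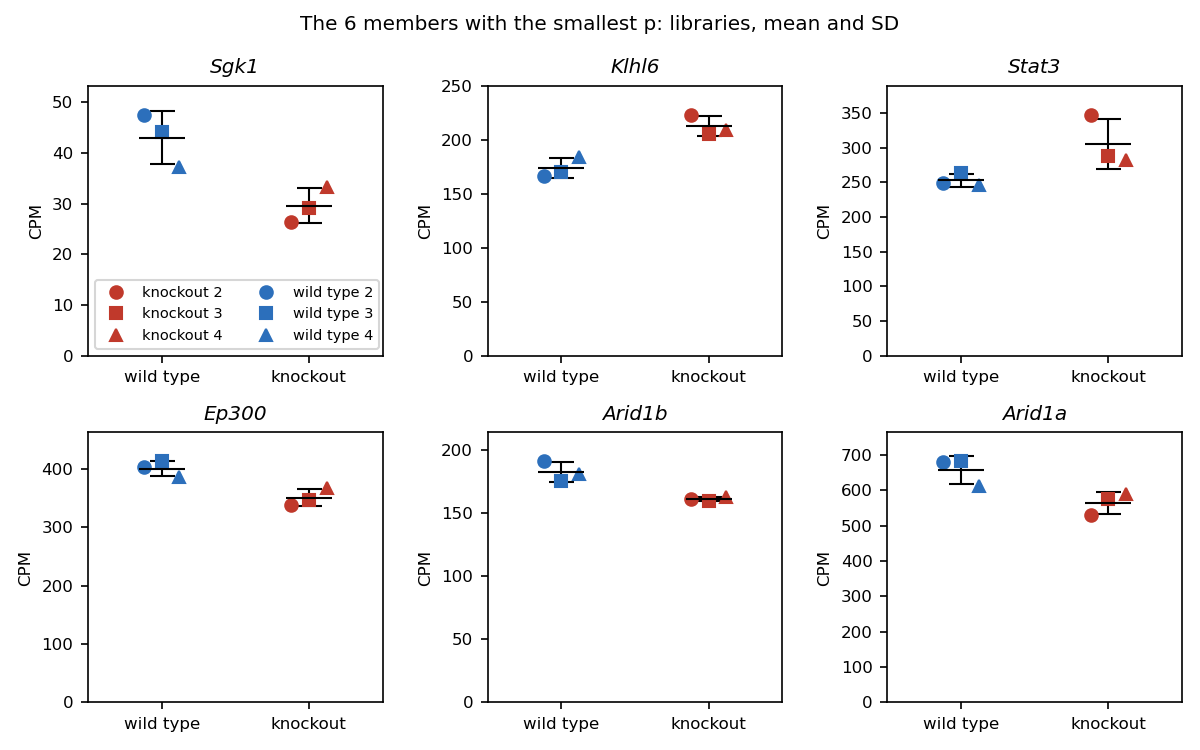
Level in CPM (vertical, from 0) of the 6 lymphoma genes with the smallest p between genotypes, 1 panel a gene, with each library as a point, the library number by symbol and the mean and SD of 3 libraries as bars. The genotypes do not overlap in any of the 6 panels, as for Sgk1 at 26.3 to 33.2 CPM in knockout and 37.3 to 47.5 CPM in wild type, and none of the 6 genes passed the threshold with all libraries.

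In the axis that confines B cells and shapes actin, Gna13, the gene for Gα13, differed by −0.08 (SE 0.10, edgeR adjusted p = 0.729). Rhoa measured 293, 282 and 285 CPM in knockout and 219, 244 and 284 CPM in wild type. The knockout libraries were alike and the wild-type ones spread from well below them to their level, so that the log2 change of 0.20 (SE 0.10) missed the threshold (edgeR adjusted p = 0.399). Tmsb4x, the single X-linked member, measured 2621, 2377 and 2619 CPM in knockout and 1623, 1833 and 2919 CPM in wild type. Wild-type library 4 was the highest of all 6, and the log2 change of 0.26 (SE 0.19, edgeR adjusted p = 0.592) was 0.53 in libraries 2 and 3 alone (edgeR adjusted p = 0.00039).

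Members of the amino acid branch to mTORC1 lay close to 0. Rraga and Rragc, which encode Rag GTPase subunits, differed by 0.01 (SE 0.07) and 0.05 (SE 0.08), and Sesn1, whose product restrains mTORC1, by −0.0064 (SE 0.07). Rraga measured 118, 108 and 110.0 CPM in knockout and 107, 107 and 119 CPM in wild type, and the interval of its change ran from −0.16 to 0.18. The sign for Rraga turns to −0.03 when libraries are scaled to their size alone. In the DNA damage response, Trp53, the gene for p53, averaged 165 CPM (SD 13.2) in knockout and 157 CPM (SD 9.51) in wild type, and the kinase gene Atm at 153 CPM (SD 12.8) and 158 CPM (SD 11.9). Their changes were 0.07 (SE 0.08) and −0.04 (SE 0.09), with edgeR adjusted p = 0.755 and 0.868.

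Among the transcription factors, Irf8, which directs B-cell and myeloid development, measured 749, 642 and 747 CPM in knockout and 630.0, 657 and 629.6 CPM in wild type. Knockout library 3 lay within the wild-type range, and the log2 change was 0.16 (SE 0.08, edgeR adjusted p = 0.447). Tcf3, the E protein E2A, differed by −0.05 (SE 0.09), and its inhibitor Id3 by −0.03 (SE 0.14). Id3 measured 85.9, 84.4 and 57.6 CPM in knockout and 76.5, 82.2 and 74.4 CPM in wild type, with knockout library 4 lowest. The sign of its change turned to 0.10 in libraries 2 and 3 alone.

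At the cell surface, Tnfrsf14, the receptor HVEM that restrains germinal centre B cells, measured 24.2, 21.9 and 13.97 CPM in knockout and 18.03, 18.1 and 14.1 CPM in wild type. Library 4 was lowest in each genotype, and the log2 change was 0.26 (SE 0.19, edgeR adjusted p = 0.593). Notch1 differed by −0.03 (SE 0.12). Hvcn1 measured 1319.8, 1236 and 1016 CPM in knockout and 1055, 1077 and 1129.7 CPM in wild type, a log2 change of 0.13 (SE 0.10, edgeR adjusted p = 0.615). Tmem30a, the chaperone of phospholipid flippases, had the change nearest to 0, at 155, 154 and 177 CPM in knockout and 154, 150.4 and 181 CPM in wild type (log2 change 0.0018, 95% interval −0.21 to 0.21).

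How many members passed depended on the libraries numbered 4. With a model term for those libraries, Klhl6 rose and Sgk1 fell in knockout (edgeR adjusted p = 0.0257 and 0.0333), 2 of 34 members, where 4.4% of all tested genes passed (2.59% higher and 1.81% lower). In libraries 2 and 3 alone, 12 of 34 members passed, where 24% of all tested genes did. Tnfrsf14, Tmsb4x, Rhoa, Klhl6, Stat3 and Hvcn1 were higher in that comparison, and Crebbp, Ep300, Arid1a, Arid1b, Setd1b and Sgk1 lower. All 5 chromatin regulators among them were lower, and 6 of the 7 signalling genes were higher. Over all genes, 13.6% were called higher and 10.4% lower in the same libraries.

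The difference between knockout and wild-type library 4, 1 library each, is given beside these values without a test. The median difference of the 13 chromatin regulators was −0.11 in libraries 2 and 3 and 0.02 between the libraries numbered 4. For the signalling genes it was 0.09 and 0.01. Over all tested genes it was within 0.01 of 0 in each. Of the 12 genes called in libraries 2 and 3, Crebbp (0.08), Tnfrsf14 (−0.01), Tmsb4x (−0.16) and Hvcn1 (−0.15) had the other sign between the libraries numbered 4. Without wild-type library 4, edgeR called Tmsb4x, Rhoa and Klhl6 higher and Sgk1 lower, 4 members where 6.47% of genes passed.

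Some members varied with library number, and the share of members that did was near that of all genes. With genotype in the model, 5 of 34 members differed between the libraries numbered 4 and libraries 2 and 3, where 14.8% of all tested genes did (edgeR adjusted p under 0.05). Eed, Gna13 and Tmem30a were higher in the libraries numbered 4, as were 7.83% of genes, and Tnfrsf14 and Smarca4 lower, as were 6.95%. The largest was Tnfrsf14, at 68.8% of its level in the other libraries (log2 difference −0.54, SE 0.10, edgeR adjusted p = 0.00859). Eed stood at 119%, Tmem30a at 117% and Gna13 at 116% (edgeR adjusted p = 0.016, 0.0174 and 0.0306), and Smarca4 at 86.8% (edgeR adjusted p = 0.0328). Eed measured 87.9 and 84.4 CPM in the libraries numbered 4 and between 70.3 and 75.3 CPM in the other 4 libraries, with no overlap. Sgk1 differed by −0.01 (SE 0.12) with library number, an average over genotypes that moved in opposite directions. Its library 4 was the highest in knockout (33.2 CPM) and the lowest in wild type (37.3 CPM). The genotype difference was −0.72 in libraries 2 and 3 and −0.17 between the libraries numbered 4. The calls of Eed, Gna13 and Tmem30a did not hold without knockout library 3 or without wild-type library 3, that of Gna13 also not with scaling to library size alone, and that of Smarca4 not without any one of the libraries numbered 2 or 3.

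Genes that work with the members gave a like picture. The 10 lists of partners and pathway genes held 212 genes outside the 35, of which 207 were tested, and edgeR called 0 of them, where 0.404% of all tested genes passed. There were 29 at an unadjusted p under 0.05, where 13.4% of all genes were. limma-voom called 0, against 0.353% of all genes, and DESeq2 called 4, among them Kdm6a, Rbpj and Zfp36l1, against 2.57%. Their median log2 change was −0.01, as over all tested genes. The median was −0.02 in 21 PRC2 and PRC1 partners, 0.01 in 18 BAF and PBAF subunits, −0.05 in 14 genes of the H3K4 methyltransferase complexes and −0.03 in 12 acetyltransferase and corepressor genes. It was −0.04 in 26 genes of amino acid sensing, 0.02 in 9 of the G13 and RhoA pathway, 0.08 in 21 of the JAK-STAT pathway, −0.01 in 18 p53 and ATM genes, −0.07 in 13 Notch genes and 0.01 in 55 other lymphoma genes. In the H3K4 complexes 2 of 14 genes had a change above 0, against 48.8% of all tested genes, and between the single libraries numbered 4 it was 6 of 14.

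Genes with the smallest p in their list were examined. Rbpj, the DNA-binding partner of Notch, measured 21.7, 21.0 and 21.8 CPM in knockout and 16.5, 15.5 and 14.6 CPM in wild type, a log2 change of 0.47 (SE 0.09, edgeR adjusted p = 0.100). Kdm6a, an X-linked demethylase of histone H3 lysine 27 in the KMT2C and KMT2D complexes, measured 126, 129 and 129.8 CPM in knockout and 155, 151 and 154 CPM in wild type (log2 change −0.26, SE 0.06, edgeR adjusted p = 0.155). Kdm6a escapes X inactivation, and the sex composition of the libraries moved with genotype, so its part in that value was not tested. Zfp36l1, which promotes decay of mRNA, measured 317, 316 and 377 CPM in knockout and 458, 435 and 417 CPM in wild type (log2 change −0.37, edgeR adjusted p = 0.154).

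In other lists, the polycomb partner Rbbp7, also X-linked, differed by 0.29, the BAF subunit Bcl7b by 0.17, the Ragulator subunit Lamtor1 by 0.23, Arhgdia of the G13 pathway list by 0.28 and the p53 inhibitor Mdm4 by −0.21. Their edgeR adjusted p lay between 0.196 and 0.344. With the model term for the libraries numbered 4, edgeR called 7 of the 207 genes, where 4.4% of all genes passed. Rbbp7, Arhgdia, Rbpj and Pou2af1, a B-cell coactivator, rose, and Kdm6a, Zfp36l1 and the PRC2 partner Phf1 fell.

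CG content of the promoters was not used in choosing the genes and is given as a description, with no test. A RefSeq promoter window was matched for 31 of the 35 genes, and Setd1b, Cd70, Klhl14 and Hvcn1 had none matched. A window was called rich in CpG when its GC share was at least 50% and its observed to expected CpG ratio at least 0.6, searching the letters CG, which read the same on either strand. All 12 matched chromatin regulators met this and 13 of 19 signalling genes (68.4%). Of 11753 windows of tested genes 65.0% met it, and of all 32851 windows 33.5%. At least 1 CG was present in every member's window, in 99.1% of the windows of tested genes and in 94.6% of all windows.

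**Figure D5:**
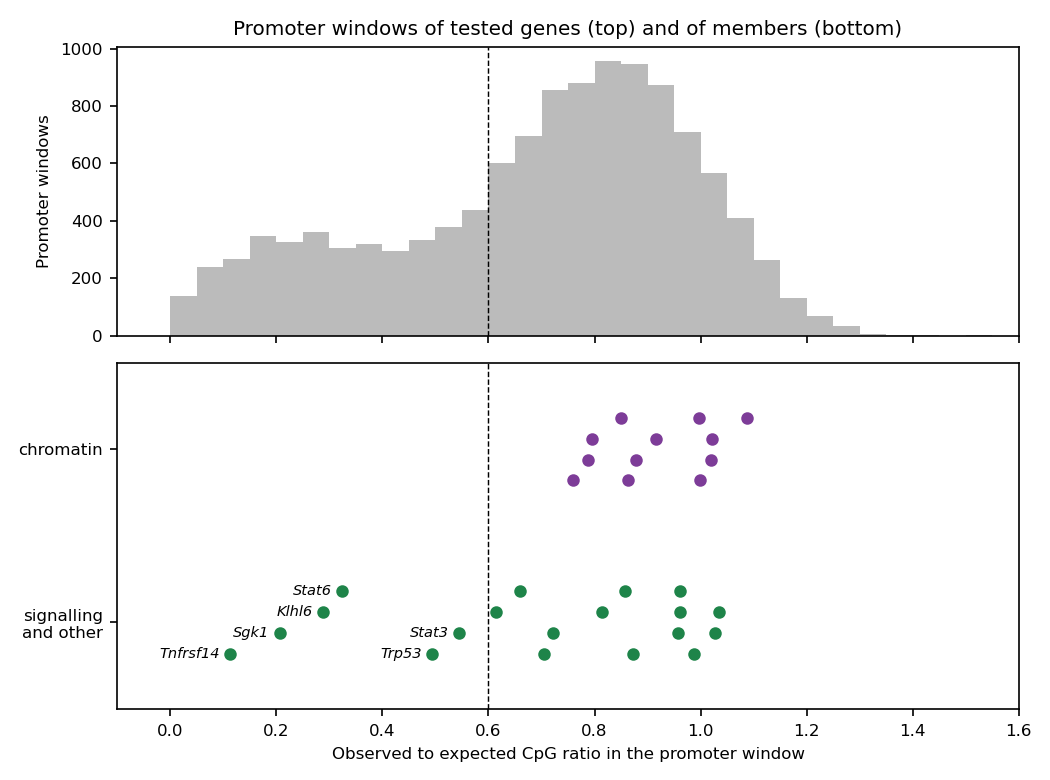
Observed to expected CpG ratio (horizontal) in promoter windows of 300 bases, top for the 11753 windows of tested genes as a histogram and bottom for 31 lymphoma genes as points by class, with the ratio of 0.6 as a dashed line. All 12 chromatin regulators lie right of the line, and the 6 genes left of it are Tnfrsf14, Sgk1, Klhl6, Stat6, Stat3 and Trp53.

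The members below the criterion were Tnfrsf14 with 2 CG dinucleotides, Sgk1 with 3, Klhl6 with 6, Stat6 with 8, Trp53 with 10 and Stat3 with 15. Among them are the 4 signalling genes whose genotypes did not overlap, as was so for 18.5% of all tested genes. In Tnfrsf14 and Trp53 the genotypes overlapped. Stat6 separated by a narrow margin, and the ratio of Stat3, 0.545, lay near the limit of 0.6. This describes few genes, and the share of separated genes among all tested genes with such windows was not examined. The 3 chromatin regulators whose genotypes did not overlap, Ep300, Arid1a and Arid1b, had windows rich in CpG. The count for Sgk1 depends on the start chosen, since its 6 windows held between 3 and 28 CG and 1 of them was rich, as the printed pair shows. The window nearest to the deposited 5′ end was used, which for Notch1 lay 12841 bases away. The counts do not say which start is used in these cells.

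Counting without strand touches some members. Exon bases were shared with a gene on the opposite strand for Hvcn1 (15.4% of its exon bases, with Tctn1), Klhl14 (13.8%, with 4930426D05Rik), Eed (10.6%, with Gm26529), Rragc (7.90%, with 4930535I16Rik) and Notch1 (7.504%, with 0610009E02Rik, and 2.91%, with Gm13568). For Suz12 (Gm26563), Ezh2 (Gm26625), Gna13 (Gm11696), Stat6 (Nab2) and Stat3 (Stat5a) the share was at most 3.6%. Reads from such bases cannot be assigned to either gene. Sgk1, Klhl6, Arid1a and Arid1b shared no exon bases with another gene, and Ep300 shared 0.389% with Gm23880 on its own strand.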

How the data were processed

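RNA from naive B cells of mouse spleen was sequenced in 6 libraries (Trizol and RNeasy extraction, TruSeq stranded mRNA kit, per the labels). The authors deposited raw counts of fragments per gene name, not normalized, made by featureCounts 1.5.1 over GENCODE vM3 exons, without a strand setting, per the file headers. Alignment used STAR 2.3.0e and GRCm38.p3, per the submitters' processing notes. A further 6 columns were not used.

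From these counts, CPM with TMM library sizes, RPKM from the deposited exon lengths, and edgeR 4.0.16 quasi-likelihood F tests (R 4.3.3; robust; filterByExpr with a minimum count of 10; Benjamini-Hochberg adjustment over 13604 genes; threshold 0.05) were computed, with genotype alone in the model. The test was checked on counts simulated with the same spread for every gene, so the check does not cover the spread of these libraries. The comparison of libraries numbered 4 kept genotype in the model. Alternatives were other scalings and filters, DESeq2 1.42.0, limma-voom (limma 3.58.1), a block for library number, a term for the libraries numbered 4, libraries 2 and 3 alone, and leaving out each library. Floors cover counting error only.

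The members and all lists were chosen with earlier results of these data known. All 35 members are named, with, from each list, the genes past the threshold (up to 3) or else the 1 with the smallest p; some genes that this rule names are not reported here. Promoters shown were those of the 2 matched members with the smallest p and the 1 with the largest. Ezh1, Pou2af1, Phf1, Igj, Mki67 and the other single cell type markers were named after their values were seen. So were the heat-shock and sex-linked genes and the second Sgk1 window.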

Additional observations from a re-analysis of the deposited data

How the results depend on the processing

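All genes called higher and lower in knockout (25 and 30) numbered 160 and 102 with no filter on low counts, 197 and 152 with DESeq2, 353 and 246 with a term for the libraries numbered 4, and 1871 and 1436 in libraries 2 and 3 alone. Leaving out 1 library gave 9 to 630 higher and 8 to 270 lower. Members called (0 and 0) numbered 1 and 1 with DESeq2 and with that term, 6 and 6 in libraries 2 and 3, and 0 and 1 with no filter, and leaving out 1 library gave 0 to 3 and 0 to 1. The wider lists went from 0 and 0 to 4 and 3 with the term. Between the libraries numbered 4 and the others, no filter gave 1612 genes higher in place of 1065 and 5 members lower in place of 2, and DESeq2 gave 4 members lower. Leaving out 1 library numbered 2 or 3 gave 299 to 1111 genes and 0 to 4 members higher, and 209 to 792 genes and 1 to 3 members lower. The cause of these shifts was not tested.

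Equal library numbers were not taken as pairs, since the correlations of deviations between genotypes were 0.0750, 0.278 and 0.448 for numbers 2, 3 and 4. A replicate block gave 35 genes higher and 50 lower, and 0 members, and only number 4 correlated best with its own number in both genotypes.

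The sign turned for 12 members in 36 of 510 values over 15 alternatives, and for 22 members in none. Tmem30a was −0.0021 with RLE scaling, with at least 1 CPM in 3 libraries and with DESeq2, and −0.042 with library size alone, which also turned Smarca4 (−0.042), Rraga (−0.034) and Tbl1xr1 (−0.010). With no filter Kmt2d was 0.0050 and Sesn1 0.0033. Kmt2d was 0.0081 with limma-voom and 0.0065 with the replicate block. In libraries 2 and 3 Smarca4 was −0.017 and Id3 0.10. With 1 library left out, changes ran from −0.11 to 0.015 for Atm, −0.033 to 0.15 for Eed, −0.14 to 0.13 for Id3, −0.11 to 0.18 for Kmt2d, −0.096 to 0.081 for Notch1, −0.030 to 0.069 for Rraga, −0.013 to 0.082 for Rragc, −0.047 to 0.029 for Sesn1, −0.069 to 0.059 for Smarca4, −0.035 to 0.54 for Socs1, −0.00019 to 0.078 for Tbl1xr1 and −0.069 to 0.093 for Tmem30a. With 2 libraries left in a genotype, the spread is shared with the other genotype. Depth limits Cd70, with 1 count in all.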
